A study of Mus musculus with 16 samples.

Results

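The BCL2 family and caspase-8 decide at the mitochondrion and at death receptors whether a cell survives, and 10 of their genes were followed here in macrophages sorted from mouse gliomas. The members were Bcl2l11, Bcl2, Bcl2l1, Mcl1, Bid, Bad, Bak1, Bbc3, Pmaip1 and Casp8, taken by symbol out of 12394 genes measured. Only probe sets annotated to a single symbol were used, and each gene was represented by its probe set with the highest mean over the 16 arrays. The 10 genes had 25 such probe sets, and the remaining 15 served as a check. No member was removed by a filter on dim signal, and each of the 10 had a mean above the 25th percentile of genes.

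In the mitochondrial pathway the effector BAK permeabilises the outer membrane and lets cytochrome c escape. BCL2, BCL-XL (Bcl2l1) and MCL1 hold it in check, while the BH3-only proteins BIM (Bcl2l11), BID, BAD, PUMA (Bbc3) and NOXA (Pmaip1) either neutralise these guardians or activate the effectors. Caspase-8 starts the death receptor pathway, links it to mitochondria by cleaving BID, and restrains necroptosis through RIPK1 and RIPK3. Macrophages depend on CSF-1 as a survival factor, and BIM is known as a mediator of death when blood cells lose such a factor.

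BLZ945, which blocks the kinase of the CSF-1 receptor, was given to 8 mice and its vehicle, 20% captisol, to 8 others, by gavage once a day for 7 days. The labels state the dose as 200 mg with no body weight. Mice of both groups carried the Nestin-Tv-a transgene, which lets Nestin-positive cells be infected, on an Ink4a/Arf-/- mixed background, and gliomas were started with DF-1 cells releasing RCAS-PDGF-B-HA at 5 to 6 weeks of age. After perfusion and papain digestion, CD11b+ Gr1- cells were collected by sorting, and each mouse gave 1 array. BLZ945 mice were 5 females and 3 males aged 11.29 weeks (4 mice) or 13.14 weeks (4 mice). Vehicle mice were 4 females and 4 males aged 11.29 weeks (4 mice), 11.43 weeks (2 mice) or 12.29 weeks (2 mice). The labelled initial tumour volume, for which no unit is given, ranged over 41.3 to 132.3 in the 8 BLZ945 mice and 11.9 to 27.3 in the 6 Vehicle mice that have one, so volume and agent cannot be told apart. The protocol gives tumours of 4.5 to 40 mm3 as those randomised, and if the labelled values are in mm3, each of the 8 BLZ945 mice lies above that limit. What the label measured is therefore uncertain, and each fit that uses volume carries that limit. Both groups share the loss of Ink4a/Arf and the PDGF-B driver, so the values describe macrophages of that one tumour model.

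Macrophage markers were bright on the arrays, and some markers of other cells were bright too, as given further on. Csf1r, the receptor that BLZ945 inhibits, averaged 13.66 ± 0.12 in BLZ945 mice and 13.61 ± 0.14 in Vehicle mice (log2 values, SD, n = 8 each), a difference of 0.06 (limma adjusted p = 0.73). Cd68, a lysosomal macrophage marker, differed by 0.41 (adjusted p = 0.178). The mean of 7 macrophage and microglia markers ranged from 11.58 to 11.99 in BLZ945 mice and from 11.67 to 12.18 in Vehicle mice. Itgam, the gene of the sorting marker CD11b, fell by 1.17 (adjusted p = 0.00807). Array medians lay between 5.74 and 5.87, and the lowest correlation between any pair of arrays was 0.937. In RNA from a sorted population, fewer cells of a type and less RNA per cell cannot be told apart.

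Of the 10 members, Bcl2l11 rose and Casp8 fell in BLZ945 mice, and the other 8 did not pass the test. The test was limma's moderated comparison over 12394 genes with Benjamini-Hochberg adjustment, and the threshold was an adjusted p of 0.05. Of the genes tested, 7.94% passed, 2.6% higher in BLZ945 and 5.34% lower. The share of members, 2 of 10, was above that background, but the members were chosen with results known, and nothing particular to them is read from a count of 2. At an unadjusted p under 0.05, 7 of 10 members were counted, against 22.6% of all genes, and 6 of 10 when each gene was tested by exact two-sided permutation, against 22.5% of all genes. Differences were positive for 7 members and negative for 3, with a median of 0.21. Over all genes, 7576 of 12394 differences were positive, with a median of 0.07. BLZ945 and Vehicle mice did not overlap for 1 member, Bcl2l11, against 1.36% of all genes, 0.315% with BLZ945 above and 1.04% with BLZ945 below.

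**Figure D1:**
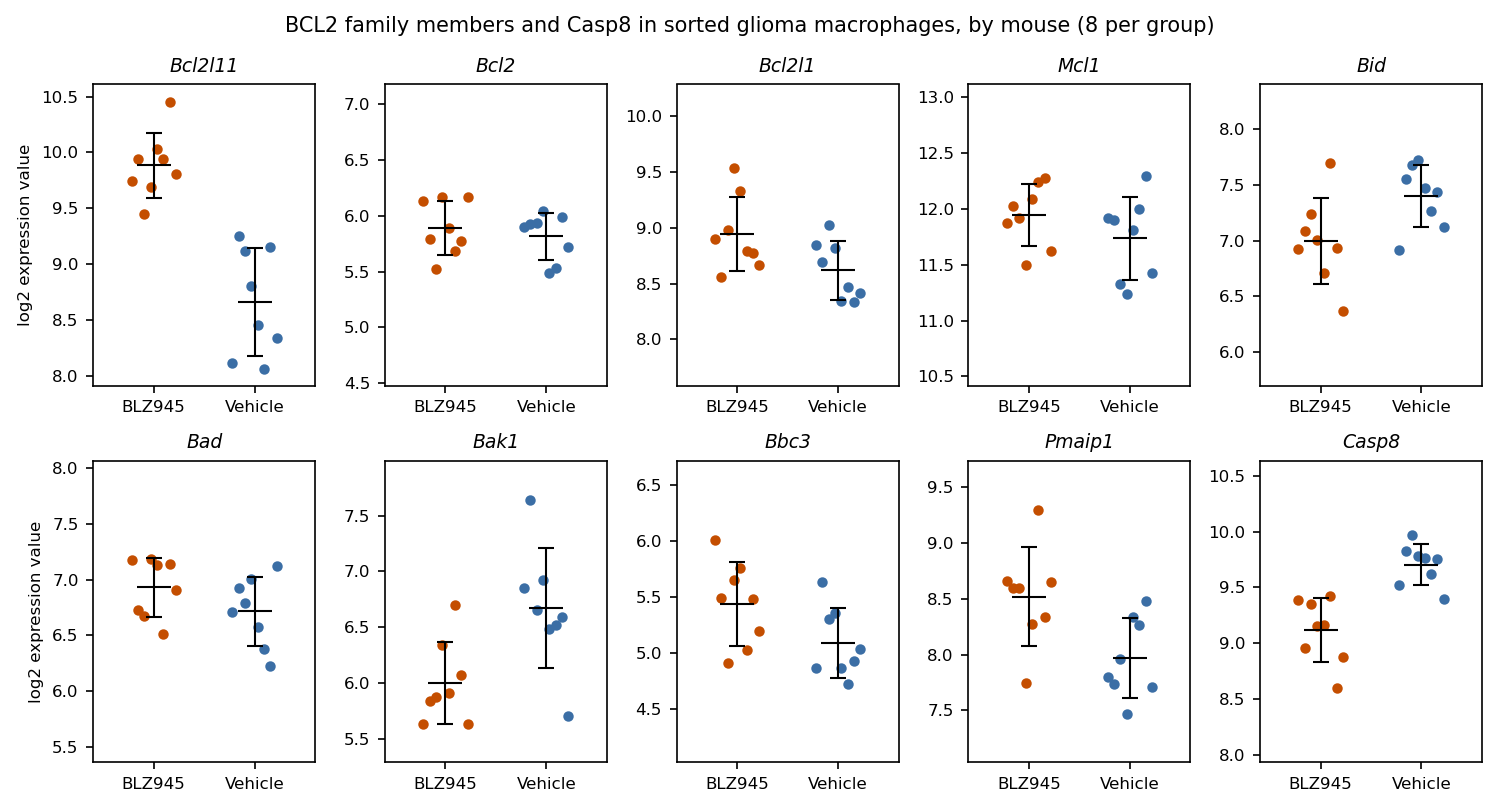
Log2 expression value (vertical axis) of each of the 10 genes in 8 BLZ945 mice (left, orange) and 8 Vehicle mice (right, blue), where horizontal lines are means, bars are SD, and each panel spans the same number of log2 units. The BLZ945 mice sit entirely above the Vehicle mice for Bcl2l11, and 7 of 8 sit below every Vehicle mouse for Casp8.

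Among the BH3-only genes, Bcl2l11 showed the widest separation. Bcl2l11 encodes BIM, which binds the guardian proteins and can activate the effectors directly, and lies at chr2:128126038-128162547 (GRCm38.p6). In BLZ945 mice 1 to 8 its log2 value was 9.75, 9.94, 9.45, 9.69, 10.03, 9.94, 10.46 and 9.81. In Vehicle mice 1 to 8 it was 8.11, 9.26, 9.12, 8.80, 8.45, 8.06, 9.16 and 8.34. The lowest BLZ945 mouse, at 9.45, lay above the highest Vehicle mouse, at 9.26. Means were 9.88 ± 0.29 in BLZ945 mice and 8.66 ± 0.48 in Vehicle mice (SD, n = 8 each). The difference was 1.22 (SE 0.19, 95% interval 0.83 to 1.62), a fold of 2.33, with an adjusted p of 0.000537 by limma and an exact permutation p of 0.000155, the smallest that 12870 labellings of the mice allow. Only 0.347% of genes had a higher difference, and 77 genes had a smaller adjusted p. The call was kept without each of the 16 mice in turn, with differences of 1.14 to 1.31. Between 5.73% and 9.59% of genes passed in those 16 fits.

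The other Bcl2l11 probe sets differed in size of the difference. Probe set 1435448_at had a lowest, median and highest log2 value of 9.19, 9.50 and 10.10 in BLZ945 mice and of 8.04, 8.44 and 9.13 in Vehicle mice, again with no overlap. Its difference of 1.03 (SE 0.17) passed over all 20393 single-symbol probe sets (adjusted p = 0.00088), of which 6.81% passed, 2.14% higher and 4.67% lower. Of the 25 probe sets of the members, 3 passed, 2 of Bcl2l11 and 1 of Casp8. It followed the main probe set over the 16 mice with r = 0.96. The sets 1435449_at and 1456006_at gave 0.66 (SE 0.23, adjusted p = 0.0953) and 0.50 (SE 0.18, adjusted p = 0.11) and did not pass. Set 1426334_a_at gave 0.04 (adjusted p = 0.906), and its mean of 4.12 was below the 25th percentile of genes. The size of the Bcl2l11 difference therefore depended on the probe set. The sign was positive in each of the 5 sets, but that of the dim set 1426334_a_at (0.04, SE 0.17) could not be told from 0.

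**Figure D2:**
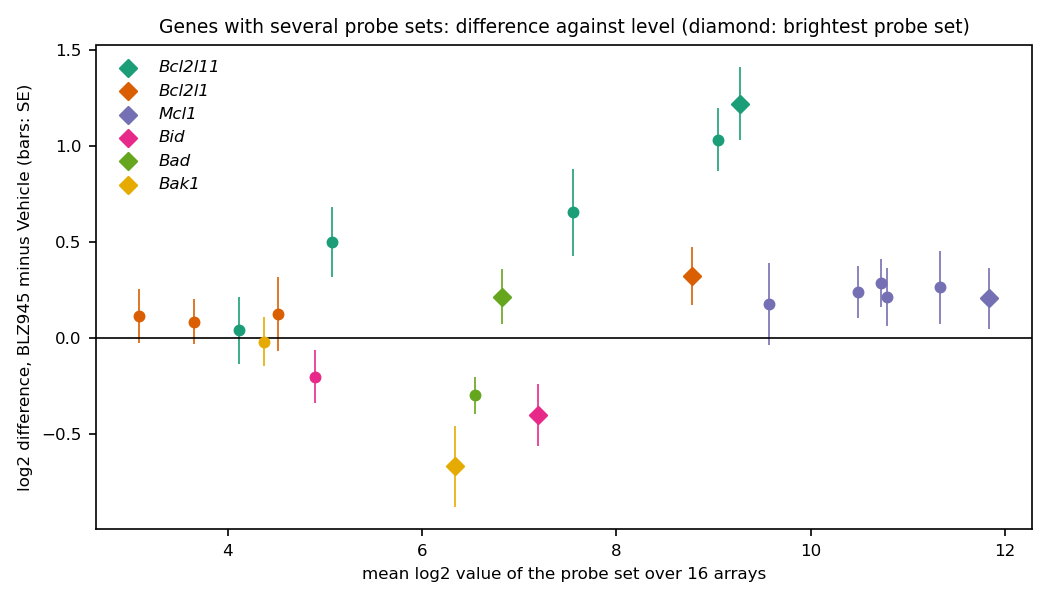
Difference in log2 value, BLZ945 minus Vehicle (vertical axis, bars are SE), against the mean log2 value of the probe set over 16 arrays (horizontal axis), for the 6 genes with several probe sets, with a diamond for the brightest set of each gene. The 5 Bcl2l11 sets lie between 0.04 and 1.22, the 6 Mcl1 sets between 0.18 and 0.28, and the 2 Bad sets on opposite sides of 0.

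Windows before a start of Bcl2l11 and of Casp8 are shown because these were the members that passed. Each line holds the 250 bases before an annotated start, read on the plus strand from RefSeq (GRCm38.p6), and capitals mark matches to the motifs searched. The Bcl2l11 window is chr2:128125788-128126037 and the Casp8 window is chr1:58802252-58802501. The Bcl2l11 window ends where the span of its gene begins. The Casp8 window lies inside the span of its gene, before an internal start, so the windows are not alike in position.
Bcl2l11: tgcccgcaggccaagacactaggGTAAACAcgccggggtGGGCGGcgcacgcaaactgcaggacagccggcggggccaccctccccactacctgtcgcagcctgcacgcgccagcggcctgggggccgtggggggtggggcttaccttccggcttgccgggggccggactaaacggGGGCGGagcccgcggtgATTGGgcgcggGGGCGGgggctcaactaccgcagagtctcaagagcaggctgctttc
Casp8: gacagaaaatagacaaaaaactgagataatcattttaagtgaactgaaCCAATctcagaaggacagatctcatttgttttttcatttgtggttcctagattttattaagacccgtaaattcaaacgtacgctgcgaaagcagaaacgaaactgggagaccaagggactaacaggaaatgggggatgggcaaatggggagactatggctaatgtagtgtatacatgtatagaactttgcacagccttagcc
These 7 motifs were searched on both strands: the FoxO core GTAAACA, the GC box GGGCGG, the CCAAT box CCAAT, the AP-1 site TGACTCA, the E2F site TTTGGCGC, the TATA box TATAAA and a 10-base NF-kB consensus site. The Bcl2l11 window held a FoxO core 227 bases before the start, GC boxes 211, 74 and 46 bases before it, and a CCAAT box on the opposite strand 57 bases before it. A second annotated Bcl2l11 start, whose window is chr2:128127325-128127574 and is not printed, had 0 FoxO cores, 2 GC boxes and 2 CCAAT boxes. The Casp8 window held a CCAAT box 202 bases before the start and no other match. GC content was 72.0% with 24 CG pairs in the Bcl2l11 window and 39.6% with 5 CG pairs in the Casp8 window, beside a median of 52.4% over 32851 windows. Of all windows, 3.17% held the FoxO core, 32.7% the GC box and 33.8% the CCAAT box. The shares were 4.46% for the AP-1 site, 0.417% for E2F, 12.4% for TATA and 0.14% for NF-kB. In 15 windows of 9 members, the FoxO core was found in 2, the GC box in 9, the CCAAT box in 5 and the other 4 motifs in 0. A match describes letters in the window and no binding.

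Pmaip1, which encodes NOXA, a BH3-only protein with preference for MCL1, had a lowest, median and highest log2 value of 7.75, 8.60 and 9.30 in BLZ945 mice and of 7.47, 7.88 and 8.48 in Vehicle mice. The groups overlapped, with 5 of 8 BLZ945 mice above every Vehicle mouse. Its difference was 0.55 (SE 0.19, 95% interval 0.16 to 0.95) and did not pass (adjusted p = 0.081, exact permutation p = 0.0146). Without BLZ945 mouse 4, the lowest of its group, Pmaip1 passed (difference 0.66, adjusted p = 0.0246). It also passed after repeating the quantile normalization (0.60, adjusted p = 0.0178) and with the arrays centred on their medians (0.59, adjusted p = 0.046), where 9.48% and 8.05% of genes passed. The same held with array weights (0.64, adjusted p = 0.0185) and with the SD of each array as a covariate (0.75, adjusted p = 0.00117), where 10.1% and 12.9% of genes passed. Pmaip1 thus passed in 1 of 16 fits with a mouse left out and in 4 of 18 other settings. It did not pass in mice of 11.29 weeks (0.65, limma adjusted p = 0.267), and its sign changed with labelled volume as a covariate (-0.19, adjusted p = 0.77).

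Bbc3, which encodes PUMA, a p53 target in other settings, ranged over 4.91, 5.49 and 6.01 (lowest, median, highest) in BLZ945 mice and 4.72, 4.98 and 5.64 in Vehicle mice. It differed by 0.35 (SE 0.17), which did not pass (adjusted p = 0.216, exact permutation p = 0.0609). Bid, whose product is the caspase-8 substrate that carries the signal to mitochondria, ran the other way. Its lowest, median and highest values were 6.37, 6.97 and 7.69 in BLZ945 mice and 6.92, 7.46 and 7.72 in Vehicle mice, and 7 of 8 BLZ945 mice were below the Vehicle median. Bid differed by -0.40 (SE 0.16), which did not pass (adjusted p = 0.145, exact permutation p = 0.0316). Without BLZ945 mouse 6, which had the highest value of its group, Bid passed (-0.50, adjusted p = 0.0368), and its second probe set gave -0.20 (adjusted p = 0.408). Bid passed in 1 of 16 fits with a mouse left out and in 1 of 18 other settings.

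Bad encodes a BH3-only protein held inactive by phosphorylation and 14-3-3 binding, and its probe sets disagreed. The brighter set ranged over 6.51, 7.02 and 7.18 in BLZ945 mice and 6.23, 6.75 and 7.12 in Vehicle mice, a difference of 0.22 (SE 0.14, adjusted p = 0.383). The second set, 1416583_at, ranged over 6.22, 6.36 and 6.58 in BLZ945 mice and 6.39, 6.70 and 6.92 in Vehicle mice. Its difference was -0.30 (SE 0.10, adjusted p = 0.0717), and it correlated with the first at r = -0.21 over the 16 mice. No direction can be given for Bad.

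None of the 3 guardian genes passed. Mcl1, whose short-lived product binds BIM and NOXA, had a lowest, median and highest value of 11.50, 11.97 and 12.28 in BLZ945 mice and of 11.24, 11.85 and 12.29 in Vehicle mice. The groups overlapped, with 3 Vehicle mice below and 1 above every BLZ945 mouse, and the difference was 0.21 (SE 0.16, 95% interval -0.13 to 0.54, adjusted p = 0.447). Its 6 probe sets gave differences of 0.18 to 0.28. Bcl2l1, which encodes BCL-XL, ranged over 8.56, 8.85 and 9.53 in BLZ945 mice and 8.33, 8.58 and 9.03 in Vehicle mice. Its difference was 0.32 (SE 0.15, adjusted p = 0.202, exact permutation p = 0.049), and the 3 dimmer sets gave 0.08 to 0.13. Bcl2, the founding anti-apoptotic member of the family, ranged over 5.53, 5.84 and 6.17 in BLZ945 mice and 5.48, 5.91 and 6.05 in Vehicle mice. Its difference of 0.08 had a 95% interval of -0.18 to 0.33 (adjusted p = 0.718), so a change as large as that of Bcl2l11 lay outside the interval.

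Bak1 encodes BAK, the effector that sits in the outer mitochondrial membrane. It had a lowest, median and highest value of 5.64, 5.89 and 6.70 in BLZ945 mice and of 5.71, 6.62 and 7.64 in Vehicle mice. Most BLZ945 mice were low, with 7 of 8 below the Vehicle median, but Vehicle mouse 8 lay among them, at 5.71. The difference was -0.67 (SE 0.21, 95% interval -1.11 to -0.23) and did not pass (adjusted p = 0.0593, exact permutation p = 0.0117). Without Vehicle mouse 8 it passed (-0.81, adjusted p = 0.0151), as it did without BLZ945 mouse 6 (-0.77, adjusted p = 0.0233). Bak1 passed in 2 of 16 fits with a mouse left out and in 1 of 18 other settings. The dimmer probe set gave -0.02 (adjusted p = 0.942).

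Casp8, which encodes caspase-8 and lies at chr1:58795233-58847503, fell in BLZ945 mice. Its log2 value was 9.39, 8.96, 9.35, 9.16, 9.16, 9.42, 8.60 and 8.88 in BLZ945 mice 1 to 8. In Vehicle mice 1 to 8 it was 9.52, 9.82, 9.97, 9.78, 9.77, 9.62, 9.76 and 9.40. BLZ945 mouse 6, at 9.42, and Vehicle mouse 8, at 9.40, were the pair that overlapped. Means were 9.11 ± 0.29 in BLZ945 mice and 9.70 ± 0.18 in Vehicle mice (SD, n = 8 each). The difference was -0.59 (SE 0.13, 95% interval -0.86 to -0.32, adjusted p = 0.00694, exact permutation p = 0.000311), which is 1.50-fold higher in Vehicle. Casp8 has 1 single-symbol probe set, so no second set could be compared. The call was kept without each of the 16 mice in turn, with differences of -0.63 to -0.52.

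**Figure D3:**
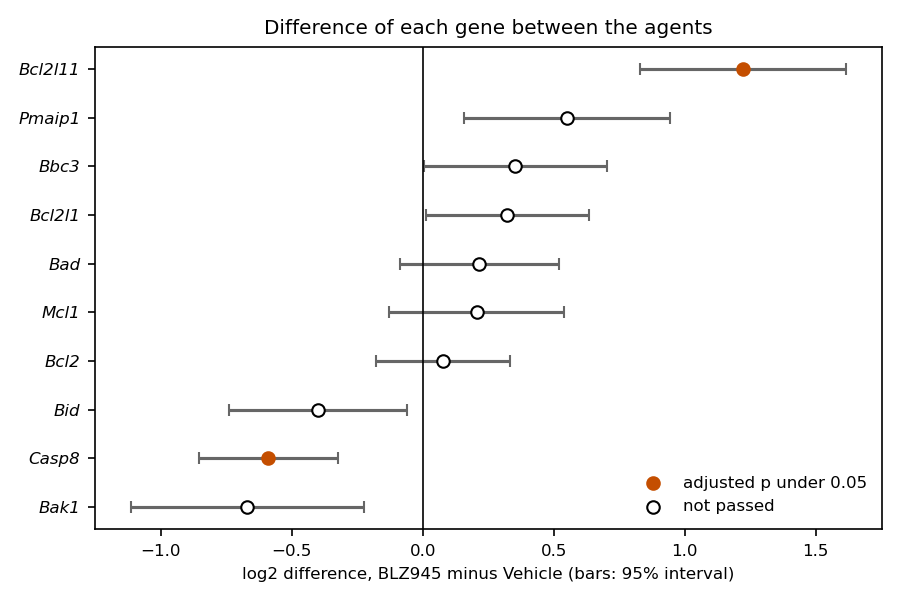
Difference in log2 value, BLZ945 minus Vehicle (horizontal axis), for the 10 genes in order of size, where bars are 95% intervals, filled points passed at an adjusted p under 0.05 and open points did not. Bcl2l11 lies at 1.22 and Casp8 at -0.59, and the interval of Bcl2 runs from -0.18 to 0.33.

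Sex and age were examined for the members because the labels give both. The agent effect on Bcl2l11 was present in each sex: 9.75 ± 0.21 in 5 female BLZ945 mice against 8.41 ± 0.49 in 4 female Vehicle mice, and 10.11 ± 0.30 in 3 male BLZ945 mice against 8.92 ± 0.37 in 4 male Vehicle mice (log2 values, SD). The interaction of agent and sex was 0.14 (SE 0.34, limma adjusted p = 0.988), and 0 members and 0.0% of genes passed it, with 0 members and 3.34% of genes at an unadjusted p under 0.05. Fitted in females alone, Bcl2l11 passed (1.34, limma adjusted p = 0.00726) where 3.17% of genes did. In males alone it did not (1.20, adjusted p = 0.152), where 0.0161% of genes did. Female minus male, with the agent in the fit, was -0.44 for Bcl2l11 (SE 0.17, adjusted p = 0.494) and -0.34 for Bid (SE 0.15, adjusted p = 0.504). No member passed the sex comparison, and 0.0323% of genes did, while 2 members and 9.8% of genes had an unadjusted p under 0.05.

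Within BLZ945, the 4 mice of 13.14 weeks were compared with the 4 of 11.29 weeks. Pmaip1 averaged 8.25 ± 0.38 in the older and 8.79 ± 0.34 in the younger mice (adjusted p = 0.25 by limma), and Bid averaged 6.76 ± 0.28 and 7.24 ± 0.33 in the older and younger mice (adjusted p = 0.253). Casp8 averaged 8.95 ± 0.27 in the older and 9.28 ± 0.22 in the younger mice (adjusted p = 0.349). No member passed, beside 0.0403% of genes, and 2 members and 18.7% of genes had an unadjusted p under 0.05. Within the 8 BLZ945 mice, the slope of Casp8 on log2 labelled volume was -0.38 (SE 0.17, adjusted p = 0.711), and no member passed, with 0.0% of genes. At an unadjusted p under 0.05 there were 1 member and 6.83% of genes.

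The age of 11.29 weeks was the only one that held both agents. Among those mice, Bcl2l11 was 9.77 ± 0.23 in 4 BLZ945 mice and 8.62 ± 0.47 in 4 Vehicle mice, a difference of 1.15 (SE 0.23, limma adjusted p = 0.0632), close in size to that over all mice. The lowest BLZ945 mouse, at 9.45, was still above the highest Vehicle mouse, at 9.16. Casp8 was 9.28 ± 0.22 in 4 BLZ945 mice and 9.73 ± 0.08 in 4 Vehicle mice, a difference of -0.45 (SE 0.14, adjusted p = 0.192). Neither gene passed there, where 0.718% of genes did. With age as a covariate, Bcl2l11 passed (1.15, limma adjusted p = 0.049) and Casp8 did not (-0.45, adjusted p = 0.211), where 1.73% of genes passed. As no other age held both agents, that fit took its difference from the same mice of 11.29 weeks. The remaining mice entered it only through the estimate of spread.

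Other genes of the death machinery were read from lists. Over all genes 7.94% passed, 2.6% higher and 5.34% lower in BLZ945, and 22.6% had an unadjusted p under 0.05 by limma. Among 17 further BCL2 family genes, 11 were tested and 0 passed (median difference -0.03). At an unadjusted p under 0.05 there were 2, of which Bmf had 0.30 at an unadjusted p of 0.0424 by limma (adjusted p = 0.201). The other, with the smallest p, was Bnip3, a mitophagy receptor of the family, at -0.56 (adjusted p = 0.124). Bcl2a1a, Bcl2a1b, Bcl2a1d and Bnip3l were left out because their probe sets carry several symbols.

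Among 17 genes of death receptors and the caspase-8 complex, 14 were tested, 1 rose and 1 fell (median 0.31). An unadjusted p under 0.05 by limma was seen for 6 of the 14, against 22.6% of all genes. Tnfaip3, which encodes the ubiquitin-editing enzyme A20, averaged 5.76 ± 0.34 in BLZ945 mice and 5.05 ± 0.41 in Vehicle mice and rose by 0.71 (adjusted p = 0.0183). Ripk3, the necroptosis kinase that caspase-8 restrains, averaged 5.98 ± 0.37 in BLZ945 mice and 6.57 ± 0.37 in Vehicle mice, a difference of -0.60 (adjusted p = 0.0434). The Ripk3 call held in 5 of 16 fits with a mouse left out and was lost without Vehicle mouse 2, 4, 5, 6 or 7 or BLZ945 mouse 2, 3, 4, 5, 7 or 8, with adjusted p up to 0.0819. The adaptor Fadd and the caspase-8 inhibitor Cflar differed by 0.07 and 0.25 and did not pass (adjusted p = 0.704 and 0.404).

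Downstream of mitochondria, 12 of 14 apoptosome and caspase genes were tested, 1 rose and 1 fell (median -0.07). An unadjusted p under 0.05 by limma was seen for 3 of the 12, near the 22.6% of all genes. Cycs, which encodes the cytochrome c that BAK releases, averaged 10.31 ± 0.25 in BLZ945 mice and 10.98 ± 0.39 in Vehicle mice and fell by 0.67 (adjusted p = 0.0137). Htra2, a mitochondrial protease that opposes inhibitors of apoptosis, rose by 0.77 (adjusted p = 0.0483). That call held in 5 of 16 fits with a mouse left out and was lost without Vehicle mouse 1, 5, 6, 7 or 8 or BLZ945 mouse 1, 2, 3, 4, 5 or 7, with adjusted p up to 0.0964. None of the 3 inflammatory caspases passed, 0 of them at an unadjusted p under 0.05, and Casp4 had the smallest p (0.32, adjusted p = 0.451).

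Of 9 transcription factors that act on BH3-only genes, 8 were tested and 2 rose (median 0.19), where 2.6% of all genes passed as higher. The same number, 2 of 8, had an unadjusted p under 0.05 by limma, against 22.6% of all genes. Ddit3 encodes CHOP, a factor of the endoplasmic reticulum stress response that can induce Bcl2l11. Its lowest and highest values were 8.23 and 8.96 in BLZ945 mice and 7.17 and 8.05 in Vehicle mice, with no overlap, and it rose by 0.90 (SE 0.15, adjusted p = 0.00103). Atf4, which acts upstream of CHOP, rose by 0.53 (SE 0.13, adjusted p = 0.0136). Both calls held in 16 of 16 fits with a mouse left out. Foxo3, which induces Bcl2l11 when growth factor signals stop, differed by 0.22 and did not pass (adjusted p = 0.442), and Foxo1 differed by 0.12 (adjusted p = 0.586). The mRNA of a FoxO factor does not report its activity.

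All 13 listed p53 targets were tested and 1 fell (median -0.13), where 5.34% of all genes passed as lower. An unadjusted p under 0.05 by limma was seen for 4 of the 13, against 22.6% of all genes. Aen, a nuclease gene, had a difference of -0.36 (adjusted p = 0.0394), held in 4 of 16 fits and lost without Vehicle mouse 3, 4, 5, 6, 7 or 8 or BLZ945 mouse 1, 3, 4, 5, 7 or 8, with adjusted p up to 0.0751. Cdkn1a differed by -0.06 (adjusted p = 0.89). Among 11 protein partners and modifiers of the members, 10 were tested and 0 passed by limma (median -0.04). An unadjusted p under 0.05 was seen for 2 of the 10, near the 22.6% of all genes. The smallest p was that of Ywhae, which encodes a 14-3-3 protein that can bind BAD (-0.75, adjusted p = 0.0943). The 7 genes of these lists that passed over all mice were Tnfaip3, Ripk3, Cycs, Htra2, Ddit3, Atf4 and Aen. They did not pass within the mice of 11.29 weeks (adjusted p 0.139 to 0.441), where 0.718% of all genes passed with 4 mice a group. Their differences there were 0.56, -0.51, -0.39, 0.56, 0.80, 0.39 and -0.46 in that order, each with the sign it had over all mice.

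The genes whose values followed Bcl2l11 most closely over the 16 mice were Jund (r = 0.91), Cd300a (0.90), Myo9a (0.89), Dnmt3a (0.89) and Usp19 (0.89). After the group means were subtracted, r was 0.69, 0.77, 0.57, 0.58 and 0.59 in that order. Casp8 was followed most closely by Crybb1 (r = 0.93), Clpb, Ccdc58, Cpped1 and Ide (0.91 each), with 0.79, 0.79, 0.74, 0.86 and 0.72 after subtraction. These genes were picked as the highest of 12394, so the r values are a description. Between members, after subtraction, the pairs with the largest r were Bad with Pmaip1 (-0.82), Bad with Bbc3 (0.72), Bcl2l1 with Pmaip1 (-0.66) and Bid with Casp8 (0.63), by size whatever the sign. Bcl2l11 and Casp8 had 0.04. In BLZ945 and then Vehicle mice, r with the SD of each array was -0.94 and -0.85 for Bad. For Pmaip1 it was 0.77 and 0.86, for Bbc3 -0.81 and -0.60, and for Bcl2l1 -0.71 and -0.56. For Bid it was 0.56 and 0.19, and for Casp8 0.14 and 0.215. Whether this property of the arrays produced the pairs was not tested. Each mouse's values come from 1 array and share its normalization.

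Among the marker lists for other cells and for cycling, only the glioma and cycling lists held genes that passed. Of 7 glioma and oligodendrocyte precursor markers, 3 fell, Pdgfra, the receptor of the tumour driver, by 2.71 (adjusted p = 0.000441), Olig1 by 1.95 (adjusted p = 0.00685) and Olig2 by 1.23 (adjusted p = 0.00913). The other 4 did not pass: Sox2 differed by -1.32 (adjusted p = 0.0581), Sox10 by -0.07, Cspg4 by 0.44 and Nes by 0.12, so that 5 of the 7 differences were negative. The mean of the 7 ranged over 5.31 to 6.85 in BLZ945 mice and 6.27 to 7.94 in Vehicle mice. All 6 cycling markers tested fell, Mki67 by 2.84 (adjusted p = 0.00181) and Top2a by 2.40 (adjusted p = 0.00132), and their mean ranged over 4.42 to 7.08 in BLZ945 mice and 7.44 to 8.92 in Vehicle mice. No marker passed in the lists for T and NK cells (7 tested, each with a positive difference, 5 of them dim), neutrophils (6), B cells (4), endothelium (5), astrocytes (4), oligodendrocytes (3) and neurons (4, all dim). At an unadjusted p under 0.05 there were 5 T and NK, 1 B cell, 2 endothelial and 1 astrocyte markers, and 0 of the other 3 lists. Over all genes, 22.6% had such a p by limma, and 7.94% passed the adjustment. The mean of the T and NK markers ranged over 3.98 to 5.23 in BLZ945 mice and 3.65 to 4.52 in Vehicle mice. Passing concerns the difference and not the level, and some markers of other cells were bright. Of the oligodendrocyte markers, Mbp averaged 10.55 in BLZ945 and 10.06 in Vehicle mice, Mag 6.50 and 6.28, and Mog 3.04 and 2.89. Of the astrocyte markers, Slc1a3 averaged 10.03 and 10.06, Aldh1l1 4.99 and 5.04, Gfap 4.54 and 4.65, and Aqp4 3.53 and 4.42. Which cells the cycling transcripts came from was not tested, nor was the part of other cells in the Bcl2l11 and Casp8 differences.

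**Figure D4:**
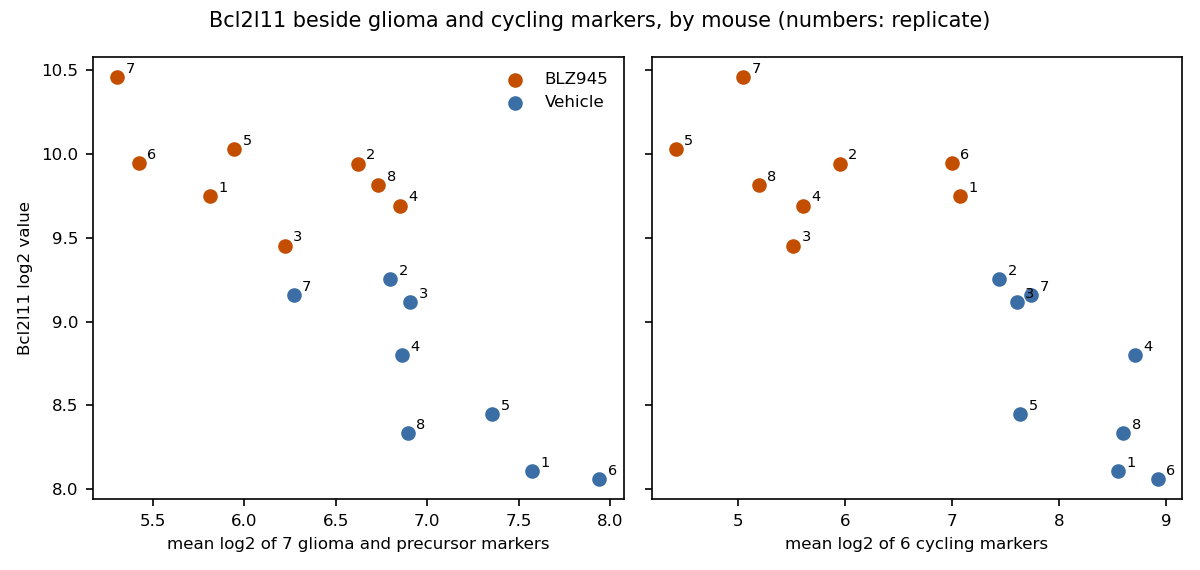
Log2 value of Bcl2l11 (vertical axis) against the mean log2 value of 7 glioma and precursor markers (left) and of 6 cycling markers (right), 1 point per mouse, numbered by replicate, orange for BLZ945 and blue for Vehicle. The cycling means of the groups do not overlap (4.42 to 7.08 in BLZ945, 7.44 to 8.92 in Vehicle), while the glioma means do.

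Within groups, 60 relations of the members to the glioma mean, the cycling mean and the SD of each array were computed with exact two-sided permutation tests. Bcl2l11 against the glioma mean gave r = -0.57 and rho = -0.62 in 8 BLZ945 mice (exact p = 0.136 and 0.115, adjusted p = 0.454 and 0.46), and r = -0.16 without the 2 mice farthest from the median. In 8 Vehicle mice it gave r = -0.83 and rho = -0.86 (exact p = 0.011 and 0.0107, adjusted p = 0.116 and 0.218), and r = -0.61 without the 2 farthest. Casp8 against the glioma mean gave r = -0.04 in BLZ945 mice and -0.35 in Vehicle mice (exact p = 0.923 and 0.399, adjusted p = 0.988 and 0.747, rho = -0.24 and -0.33). Without the 2 mice farthest from the median, its r was -0.87 in BLZ945 mice and -0.0078 in Vehicle mice. The smallest exact p against the glioma mean was that of Mcl1 in BLZ945 mice (r = -0.85, exact p = 0.00928, adjusted p = 0.116). In Vehicle mice Mcl1 had r = 0.06. Against the cycling mean, Bcl2l11 gave r = -0.28 in BLZ945 and -0.75 in Vehicle mice (exact p = 0.516 and 0.0408, adjusted p = 0.86 and 0.30). Casp8 gave r = 0.58 and -0.68, opposite in sign (exact p = 0.134 and 0.0784, adjusted p = 0.454 and 0.392). One relation passed the adjustment for r: Bad followed the SD of its array in BLZ945 mice (r = -0.94, exact p = 0.00057, adjusted p = 0.0342, -0.93 without the 2 farthest). Its rho of -0.93 had an exact p of 0.00223 and an adjusted p of 0.134. In Vehicle mice the same relation had r = -0.85 (exact p = 0.0103, adjusted p = 0.116).

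Adding the glioma mean to the fit left Bcl2l11 at 0.75 (SE 0.20) and Casp8 at -0.65 (SE 0.18), each with an adjusted p of 0.0664 by limma, where 2.14% of genes passed. With the cycling mean, 73.5% of whose variance lies between the agents, Bcl2l11 was at 0.64 and Casp8 at -0.43, and 0.0% of genes passed, with 3.15% at an unadjusted p under 0.05. With labelled volume in 14 mice, Bcl2l11 was at 1.13 (adjusted p = 0.0985) and Casp8 at -0.13 (SE 0.30, adjusted p = 0.766), where 0.121% of genes passed. Bcl2l11 kept a positive and Casp8 a negative difference in each of 18 other settings, of which Bcl2l11 passed 13 and Casp8 passed 10.

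**Figure D5:**
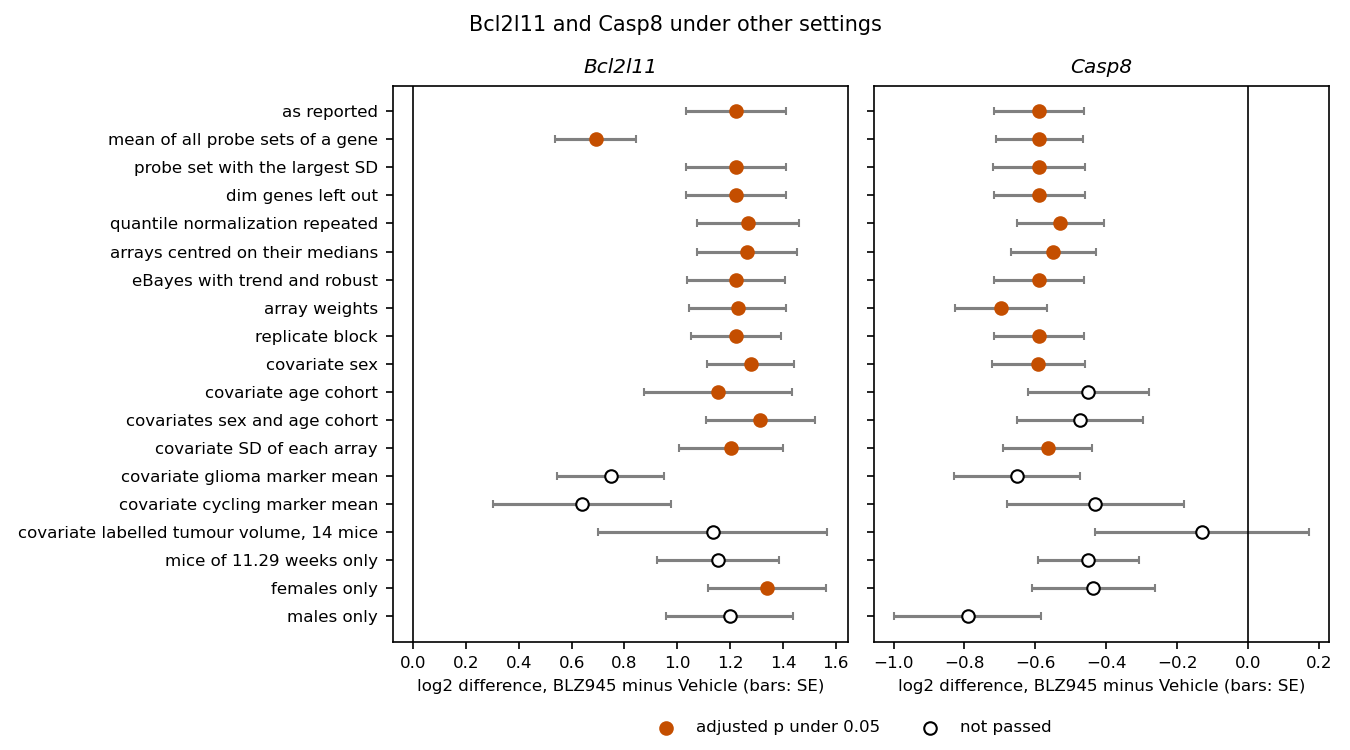
Difference in log2 value, BLZ945 minus Vehicle (horizontal axis, bars are SE), of Bcl2l11 (left) and Casp8 (right) as reported and under 18 other settings, where filled points passed at an adjusted p under 0.05 and open points did not. Bcl2l11 ranges from 0.64 to 1.34 and Casp8 from -0.79 to -0.13.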

How the data were processed

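Expression was measured on Affymetrix 3' arrays, 1 per mouse, in 8 BLZ945 and 8 Vehicle mice grouped by the labelled agent. The authors deposited log2 values, 1 per probe set and array. Tools named per the submitters' processing notes are GCOS 1.4 and RMA; which implementation, and which build, the sources used here do not say. By design, RMA normalizes across arrays and compresses differences of dim probe sets. No scanner intensities were used, so no background call was made, and precision is limited by the 16 arrays.

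Of 22690 probe sets, 20393 had 1 symbol in the platform annotation, 691 several and 1606 none. A RefSeq table found 20364 of those symbols and altered 0. The groups were compared with limma 3.58.1 in R 4.3.3 (lmFit, eBayes, no covariate), and differences are BLZ945 minus Vehicle. The code was tested on simulated data. Further fits took sex, the interaction of agent and sex, age within BLZ945 and log2 volume within BLZ945. Dim means a mean below the 25th percentile of genes (log2 4.37).

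The members and lists were chosen with earlier results of these data known. Named are all members, up to 4 passing genes of each list or else the one with the smallest p, Csf1r, Itgam, the 5 genes most like Bcl2l11 and like Casp8, and the first 2 markers of marker lists, given for those with a gene that passed. Bmf, Fadd, Cflar, Foxo1, Foxo3, Cdkn1a, the other 5 glioma markers and the astrocyte and oligodendrocyte markers were added after their values were seen. Replicate numbers did not pair the mice: correlations of same-numbered deviations from group means ranged from -0.48 to 0.39.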

Additional observations from a re-analysis of the deposited data

How the results depend on the processing

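As reported, 984 genes and 2 members passed. Without 1 mouse in turn, 710 to 1188 genes and 2 to 4 members passed, the 4 without BLZ945 replicate 6. With array weights 5 members passed, Bid (adjusted p = 0.049), Bak1 (0.0208) and Pmaip1 (0.0185) added. With the age cohort 215 genes and 1 member passed, and with sex and age 324 and 1. With labelled volume 15 genes and 0 members passed, with the glioma mean 265 and 0, with the cycling mean 0 and 0. With the SD of each array 1603 genes passed. In mice of 11.29 weeks 89 genes and 0 members passed, in females 393 and 1 (Bcl2l11), and in males 2 and 0, with Bcl2l11 at 1.20 and Casp8 at -0.79. Signs changed for Bad as the mean of its probe sets (-0.041) or by its second set (-0.30), for Mcl1 and Pmaip1 with volume (-0.34 and -0.19), and for Bcl2 with array SD (-0.0014) and in males (-0.11), none of which passed. The causes were not tested, and the subsets also hold fewer mice. With the replicate number as a block, 873 genes and the same 2 members passed, and the block changed no call of a member. Dim signal and 8 mice a group limit what small differences can show.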
